A study of Arabidopsis thaliana with 9 samples.

Results

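The comparison of the smd1b mutant with wild type covers 6 of the 9 libraries of the series. The wild-type group holds 3 libraries of the accession Col-0, and the smd1b group holds 3 libraries of plants carrying the mutant allele smd1b-3, the only smd1b allele here. The members were taken by the genotype of each library, with no measured value used. The remaining group, 3 libraries of the mutant prp39a-3 (insertion SAIL_1249A03), entered the fit to share the estimate of spread and served as a second mutant to set beside smd1b. All plants were whole seedlings of 14 days raised on an MS-based medium, the RNA was polyadenylated, and the labels describe the 3 replicates of a genotype as independent biological ones. Because smd1b is represented by 1 line, a difference between the groups belongs to this line and cannot be told apart from other differences between the line and Col-0.

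SmD1 is 1 of the Sm proteins, which assemble into a ring on the U1, U2, U4 and U5 small nuclear RNAs and so form the core of the small nuclear ribonucleoproteins (snRNPs) that remove introns from precursor mRNAs. The U1 snRNP pairs with the 5′ splice site at the start of an intron, and the U4/U6.U5 tri-snRNP joins later to build the active spliceosome. Arabidopsis carries a pair of SmD1 genes, SMD1A and SMD1B. The title of the study places SmD1 and the U1 snRNP protein PRP39 in post-transcriptional transgene silencing, the process in which double-stranded RNA made from a transgene transcript is cut into small RNAs that direct its degradation.

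Levels are in TPM, which sum to 1000000 in every library, so read depth cannot be recovered from them. In the 6 libraries, 20338 to 20680 genes had at least 1 TPM, and the 10 most abundant genes held 7.17% to 8.55% of the TPM. Of the 20585 genes tested, 1365 (6.63%) changed between smd1b and wild type at an adjusted p of 0.05 in limma's moderated linear model, with 735 higher (3.57%) and 630 lower (3.06%). The median log2 fold change of all genes tested was 0.02, on the scale of log2(TPM + 0.5) used for every log2 fold change below. Most calls needed all the libraries: 319 genes, 188 higher and 131 lower, were called whichever of the 6 libraries was left out, and the total stood between 377 without smd1b replicate 3 and 955 without smd1b replicate 1. Leaving out smd1b replicate 2 gave 555, and leaving out wild-type replicate 1, 2 or 3 gave 536, 612 or 519. The summed TPM of the leaf markers RBCS1A, LHCB1.1 and RCA ranged from 11380.0 to 14755 in wild type and from 11977 to 13466 in smd1b. The 4 root markers CASP1, COBL9, EXPA7 and PRP3 (AT3G62680) summed to 129 to 227 TPM in wild type and 81.2 to 167 TPM in smd1b. Of the 6 floral organ markers, 5 were under 1 TPM in all 6 libraries, SEP3 being the exception. The 4 seed markers stayed at or below a sum of 0.799 TPM in wild type, against 3.1 TPM in smd1b. In such whole-seedling RNA, fewer cells of a type and less RNA per cell cannot be told apart.

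SMD1B itself was all but absent from the mutant, together with its neighbours on chromosome 4. SMD1B (AT4G02840, on chromosome 4, 1264518 to 1266486 in the build TAIR10.1) reached 53.1, 53.6 and 50.3 TPM in the wild-type libraries and 0, 0.138 and 0 TPM in the smd1b libraries. It was expressed in prp39a at 49.97, 59.2 and 53.4 TPM. The fall in smd1b passed the test (log2 fold change −6.61 ± 0.109 SE, limma adjusted p = 6.18e-09), so the label of the mutant libraries matched the level of the targeted gene. The gene before it, AT4G02830, which encodes an uncharacterised protein, had 5.62, 7.24 and 5.59 TPM in wild type and 0, 0.0289 and 0 TPM in smd1b. The gene after it, AT4G02850, annotated as a PhzC/PhzF family protein of phenazine biosynthesis, had 11.6, 8.94 and 7.49 TPM and 0.0869, 0.0502 and 0.119 TPM. AT4G02850 lies on the opposite strand, and the annotated ends of the 2 genes overlap. Both neighbours were thus near 0 in all 3 smd1b libraries and expressed in all 3 of wild type. Further upstream, AT4G02820, a pentatricopeptide repeat protein, had 7.72, 7.6 and 6.68 TPM in wild type and 0.0138, 0 and 0 TPM in smd1b. AT4G02800, a coiled-coil protein, had 11.3, 8.68 and 10.4 TPM and 0.0184, 0 and 0 TPM. FAF1 (AT4G02810), whose family limits the size of the shoot meristem, was under the limit of 1 TPM for the test, with 0.847, 0.721 and 0.782 TPM in wild type, and was listed at 0 in all 3 smd1b libraries.

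The silent stretch ended sharply at both sides. EMB3129 (AT4G02790), the gene before AT4G02800, had 51.7, 41.2 and 38.7 TPM in wild type and 49.03, 42.4 and 45.4 TPM in smd1b, and AT4G02860, the gene after AT4G02850, had 45.6, 49.1 and 45.8 TPM and 44.3, 42.2 and 47.5 TPM, so that the groups overlapped for each. Neither passed the test (limma adjusted p = 0.799 and 0.588). From the start of AT4G02800 to the end of AT4G02850 the annotation spans 18642 bases and 6 genes in the table, SMD1B being the fifth. In prp39a the same genes were expressed, AT4G02800 at 7.24, 7.99 and 7.58 TPM and AT4G02850 at 7.18, 6.74 and 6.9 TPM. A difference between smd1b and wild type therefore cannot be told apart, in this design, from an effect of losing the transcripts of the 5 neighbours. TPM do not show whether the sequence of the locus or its transcription was lost.

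**Figure D1:**
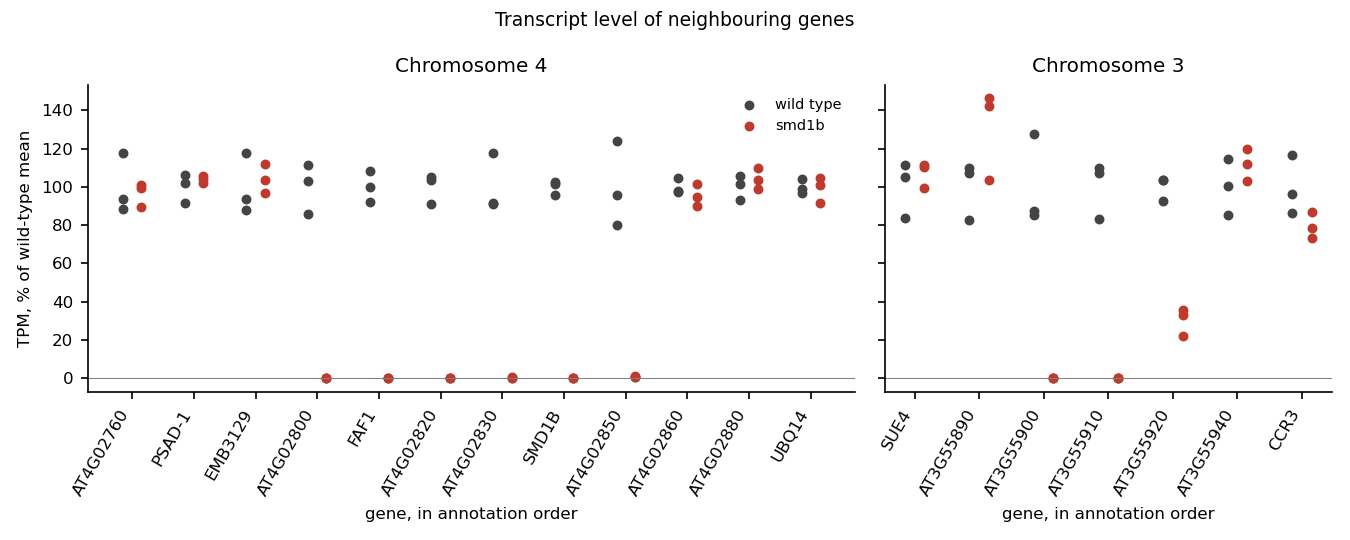
TPM of each gene in each wild-type and smd1b library, in percent of the gene's wild-type mean, in annotation order around SMD1B on chromosome 4 and around the pair AT3G55900 and AT3G55910 on chromosome 3, with 1 point per library and with genes under 0.5 TPM in wild type left out. The 6 genes from AT4G02800 to AT4G02850 and the 2 genes on chromosome 3 lie at or near 0 in smd1b, while the genes beyond them on chromosome 4 lie among the wild-type points.

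A second, shorter stretch was silent on chromosome 3. A gene was counted as silent when its wild-type mean was at least 1 TPM and every smd1b library was under 5% of the lowest wild-type library. By this rule 11 of 20360 annotated genes were silent in smd1b, and 7 of them stood in 2 runs of neighbours, the 5 genes around and including SMD1B, with FAF1 too low to count, and the pair on chromosome 3. That pair, the F-box protein gene AT3G55900 (chromosome 3, 20742166 to 20742653) and AT3G55910, annotated as a GTPase-activating protein for ADP-ribosylation factor, had 4.85, 7.27 and 4.96 TPM and 4.47, 5.75 and 5.89 TPM in wild type. Both were listed at 0 in all smd1b libraries (limma adjusted p = 5.12e-06 for each). In prp39a they had 6.03, 7.26 and 7.34 TPM and 5.14, 7.26 and 7.06 TPM. The adjoining AT3G55920, a cyclophilin-like peptidyl-prolyl isomerase, had 30.8, 30.8 and 27.4 TPM in wild type and 6.62, 9.88 and 10.6 TPM in smd1b, which is 30.4% of wild type (log2 fold change −1.69 ± 0.154 SE, limma adjusted p = 0.000694). AT3G55890 on the other side, a Yippee family zinc-binding protein, had 12.3, 16.3 and 15.9 TPM in wild type and 15.4, 21.1 and 21.7 TPM in smd1b and did not pass (adjusted p = 0.17).

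The remaining AT3G55920 transcript in smd1b was of another kind than in wild type. Its isoform AT3G55920_ID17 was listed at 0 in all wild-type libraries and made up the whole of the gene's TPM in every smd1b library (limma adjusted p = 4.32e-08). The main wild-type isoform, AT3G55920_P1, held 64.5, 72.1 and 66.8% of the gene's TPM in the wild-type libraries and was listed at 0 in smd1b. In prp39a it held 69.1, 68.8 and 71.3%. The transcript models behind these names are not used here, so which exons the surviving isoform holds is not stated.

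The other 4 silent genes stood alone in the genome, and 2 of them were as low in prp39a. AT1G75945 (chromosome 1), an uncharacterised protein gene, had 35.7, 30.4 and 31.4 TPM in the wild-type libraries, 0.586, 0.143 and 0.498 TPM in smd1b and 0.583, 0.334 and 0.366 TPM in prp39a, so that both mutants lay far below wild type. Its fall in smd1b had a log2 fold change of −5.21 ± 0.202 SE (adjusted p = 1.82e-06), and smd1b and prp39a were not different by the direct test (adjusted p = 0.867). AT3G55566 had 1.84, 2.04 and 2.1 TPM in wild type and was listed at 0 in every library of both mutants; its mean over all libraries was under the limit for testing. CML30 (AT2G15680), a calmodulin-like calcium-binding protein, had 6.15, 2.31 and 3.5 TPM in wild type and was listed at 0 in all smd1b libraries (adjusted p = 0.000559), against 3.7, 3.86 and 3.64 TPM in prp39a. The precursor gene of miR398a (AT2G03445) had 1.69, 3.79 and 1.91 TPM in wild type and was listed at 0 in smd1b, without reaching the threshold (adjusted p = 0.0553), and 1 prp39a library was at 0 too.

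Of the other 12 Sm core genes, none passed the test, beside 6.63% of all genes called. The paralog SMD1A (AT3G07590) had 17.8, 13.3 and 13.96 TPM in wild type and 23.1, 18.7 and 22.3 TPM in smd1b. Every smd1b library was above every wild-type library for SMD1A, and the difference did not pass the test (log2 fold change 0.50 ± 0.165 SE, limma adjusted p = 0.108). All 12, SMD1A and the genes for SmB, SmD2, SmD3, SmE, SmF and SmG, had adjusted p-values of 0.108 or more and log2 fold changes of at most 0.50.

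Among the proteins that work downstream of the Sm core, 2 of 9 of the tri-snRNP rose, beside 3.57% of all genes. PRP3 (AT1G28060), a protein of the U4/U6 snRNP, had 26.1, 28.1 and 26.5 TPM in wild type and 47.6, 40.6 and 39.7 TPM in smd1b, with no overlap of the groups (log2 fold change 0.65 ± 0.101 SE, limma adjusted p = 0.00837). It was 23.5 ± 2.78 TPM (SD, n = 3) in prp39a and lower there than in smd1b (adjusted p = 0.00126). BRR2B (AT2G42270), a U5 snRNP helicase that unwinds U4 from U6, had 8.82, 11.3 and 10.7 TPM in wild type and 17.98, 17.98 and 15.3 TPM in smd1b (log2 fold change 0.71 ± 0.15 SE, limma adjusted p = 0.0278). The call for PRP3 held without each of the 6 libraries in turn, while that for BRR2B was lost without any 1 of the 6 libraries (adjusted p 0.0538 to 0.0901). STA1, the plant relative of the U5-associated protein PRP6, went from 22.3 ± 0.835 TPM to 28.3 ± 2.34 TPM (adjusted p = 0.0592), and PRP8, the largest protein of the U5 snRNP, from 46.5 ± 2.75 TPM to 58.2 ± 6.75 TPM (adjusted p = 0.115). The median log2 fold change of the 9 tri-snRNP genes was 0.21. In 4 further lists no member passed, beside 6.63% of all genes called. They were the 11 LSM ring proteins (median 0.03), the 11 factors of the U2 snRNP and the 3′ splice site (0.06), the 7 of the Prp19 complex (0.05) and the 10 of nonsense-mediated decay, exon junction and cap binding (0.01). Of those the smallest adjusted p belonged to ABH1, the large cap-binding subunit, averaging 22.03 ± 1.02 TPM in the wild-type libraries against 18.97 ± 0.944 TPM in smd1b (adjusted p = 0.115), and the genes at an unadjusted p under 0.05 numbered 0, 0, 1 and 1 in these 4 lists in limma's test.

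No transcript of the silencing machinery passed the test. Of 18 genes for transgene silencing and the RNA decay pathways that compete with it, 0 were called by limma, beside 6.63% of all genes. At that share a list of this length can hold 0 calls. Of the 18 genes, 3 had an unadjusted p under 0.05. The log2 fold changes of the 18 lay between −0.20 and 0.31. The highest value belonged to DCL4, which cuts double-stranded RNA into small RNAs, with 6.86, 8.21 and 7.85 TPM in wild type and 8.74, 10.4 and 9.59 TPM in smd1b (adjusted p = 0.124). SGS3, a partner of RDR6, had 11.2, 11.1 and 12.1 TPM and 13.1, 13.2 and 12.9 TPM (adjusted p = 0.188). RDR6, the polymerase that makes the double strand, had 14.7, 14.8 and 12.9 TPM and 11.1, 12.6 and 13.04 TPM (adjusted p = 0.203), and AGO1, the slicer, had 90.8, 108 and 95.9 TPM and 92.8, 89.4 and 88.7 TPM (adjusted p = 0.423). The smd1b libraries of DCL4 and SGS3 all lay above those of wild type, while the groups overlapped for RDR6 and AGO1.

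Beyond the silent genes, the largest falls named were of unlike function, and their number was set by the limit of 12. Of the 12 largest falls in genes that reached a mean of 5 TPM in wild type, 8 were silent genes described above. The next was FLC (AT5G10140), the MADS-box repressor of flowering, with 7.39, 8.53 and 7.02 TPM in wild type and 0.23, 0.512 and 0.258 TPM in smd1b (log2 fold change −3.30 ± 0.175 SE, limma adjusted p = 1.62e-05). In prp39a FLC stood at 22.7, 32.04 and 21.8 TPM, above both other groups, and smd1b and prp39a differed (adjusted p = 6.84e-07). AT5G39150, a cupin superfamily protein, had 5.28, 12.05 and 12.2 TPM in wild type and 0.389, 0.695 and 0.532 TPM in smd1b (adjusted p = 0.00146). In prp39a it was at 0.849, 0.828 and 0.247 TPM, and the mutants did not differ by the direct test (adjusted p = 0.862). AT5G35940, a mannose-binding lectin, had 8.75, 12.3 and 6.54 TPM and 3.15, 0.718 and 1.13 TPM, a 5.52-fold fall of the mean (adjusted p = 0.0126), and the call was lost without smd1b replicate 3 (adjusted p 0.0602). AT2G16005, an MD-2-related lipid recognition protein, had 15.7, 11.7 and 8.77 TPM and 3.39, 2.89 and 1.26 TPM (adjusted p = 0.0354), a call that was lost without any 1 of the 6 libraries (adjusted p up to 0.129).

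The largest rises were mostly of transcripts that wild type hardly made, many of them noncoding or of unknown function. The noncoding RNA AT2G01422 had 0, 0.0633 and 0 TPM in wild type and 10.102, 11.5 and 12.4 TPM in smd1b (log2 fold change 4.50 ± 0.144 SE, limma adjusted p = 6.49e-07). It was intermediate in prp39a, at 0.821, 0.62 and 0.862 TPM. Another noncoding RNA, AT4G04223, had 12.2, 14.5 and 12.4 TPM in wild type and 118, 121 and 117 TPM in smd1b, 9.11-fold higher by the means (adjusted p = 1.64e-06). AT1G67105, also noncoding, had 10.5, 16.9 and 3.37 TPM and 73.7, 116 and 81.9 TPM (adjusted p = 0.00569). All 3 transcripts had wild-type and smd1b values that did not overlap, which their choice required. For the long noncoding RNA AT2G05914 the wild-type values were 0.0956, 0.0768 and 0.053 TPM and the smd1b values 7.03, 5.69 and 5.35 TPM (adjusted p = 1.01e-05). The uncharacterised AT2G40955 rose from 0.0561, 0.127 and 0.121 TPM to 6.57, 6.76 and 6.07 TPM (adjusted p = 1.01e-05), and AT3G54730, annotated as a transcription repressor, from 0.154, 0.11 and 0.152 TPM to 4.76, 6.36 and 4.4 TPM (adjusted p = 1.55e-05). In prp39a these 3 were at 0.209, 0.158 and 0.346 TPM, 0.32, 0.139 and 0.427 TPM and 0.549, 0.533 and 0.531 TPM, far below smd1b. AT2G11773 varied more within smd1b, with 1.61, 0 and 0 TPM in wild type and 6.96, 18.3 and 27.9 TPM in smd1b (adjusted p = 0.00569). AT3G28899 was listed at 0 in wild type and had 3.46, 5.97 and 5.97 TPM in smd1b (adjusted p = 8.87e-05). AT4G16805 was listed at 0 in wild type too and had 12.2, 6.68 and 3.3 TPM in smd1b (adjusted p = 0.0334). In prp39a it had 0, 4.14 and 6.27 TPM, overlapping smd1b, with no difference called between the mutants (adjusted p = 0.236), and the call against wild type was lost without any 1 of the 6 libraries (adjusted p 0.0745 to 0.0935).

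**Figure D2:**
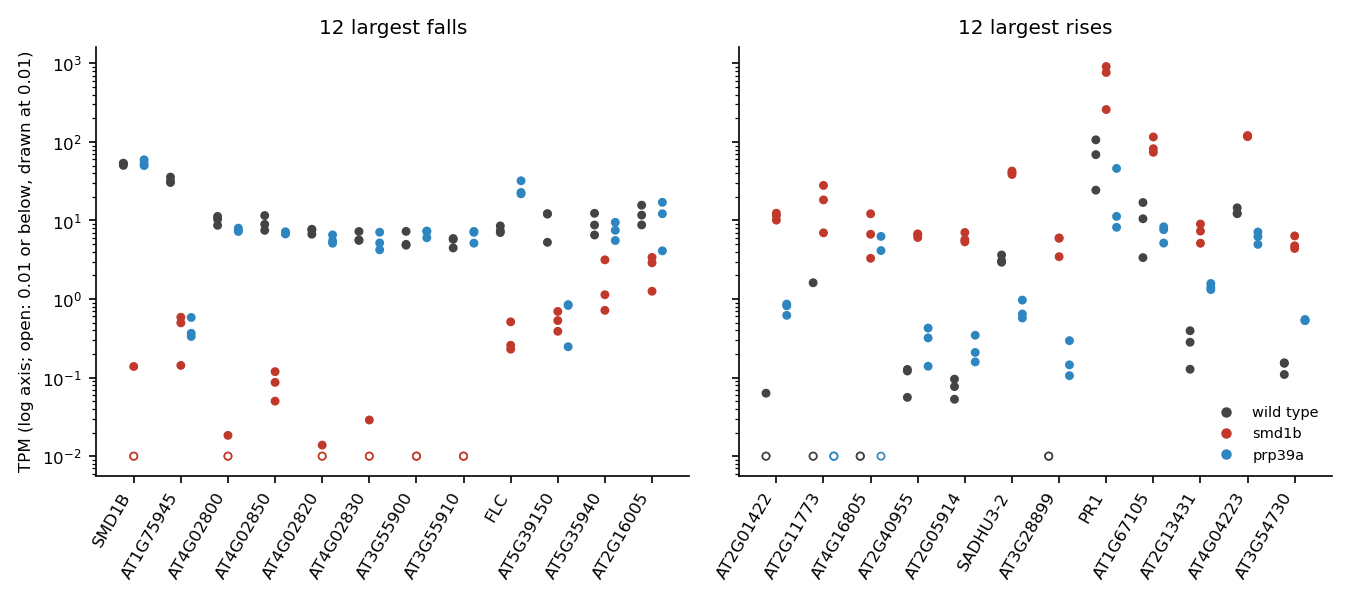
TPM on a log axis in each library of wild type, smd1b and prp39a for the 12 largest falls and the 12 largest rises in smd1b among genes with a mean of 5 TPM or more in 1 of these groups; each point is 1 library, and values of 0.01 TPM or below are drawn open at 0.01. The smd1b and wild-type points of each gene do not overlap, which the choice of these genes required, and AT1G75945 and AT5G39150 are low in prp39a too.

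As the converse of the silent genes, 16 genes had a mean of at least 1 TPM in smd1b while every wild-type library was under 5% of the lowest smd1b library. Wild type was listed at 0 in all its libraries for 10 of the 16. Of the 16, 7 code for protein. TIF3C2, a second gene for subunit C of the translation initiation factor eIF3, had 0.060, 0.021 and 0.0552 TPM in wild type and 1.34, 1.36 and 1.36 TPM in smd1b. It had 0.175, 0.086 and 0.153 TPM in prp39a. AT3G01345, an uncharacterised protein gene, had 0.0312, 0.0489 and 0.0171 TPM in wild type and 2.56, 1.92 and 2.77 TPM in smd1b, and the Ulp1 protease family gene AT5G28235 was listed at 0 in wild type and prp39a and had 2.19, 2.07 and 2.63 TPM in smd1b. The mean over the 9 libraries was high enough for a test in 7 of the 16, and all 7 were called, which their choice by these values favours.

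Among abundant transcripts, with a mean of 50 TPM or more in 1 of the groups, the largest fall after SMD1B was of PHI-1 (AT1G35140), a phosphate-responsive protein of the EXORDIUM family linked to cell growth. PHI-1 had 70.3, 89.6 and 48.7 TPM in wild type and 26.6, 20.2 and 9.77 TPM in smd1b, a 3.69-fold fall (adjusted p = 0.0224). It was 30.9, 16.9 and 15.9 TPM in prp39a, in the lower range of the 3 groups. A pair of xyloglucan endotransglucosylase/hydrolases, enzymes that remodel the cell wall, fell as well. TCH4 had 366, 470.2 and 359.8 TPM in wild type and 144, 245 and 113 TPM in smd1b (adjusted p = 0.037), and XTH15 had 49.1, 83.96 and 56.1 TPM and 24.3, 28.7 and 24.3 TPM (adjusted p = 0.047). AT3G25190, a vacuolar iron transporter family protein, had 55.2, 47.9 and 61.00 TPM and 22.1, 20.9 and 23.4 TPM (log2 fold change −1.28 ± 0.0938 SE, limma adjusted p = 0.000189). AT1G19530, annotated as a DNA polymerase epsilon subunit, had 83.4, 85.5 and 47.5 TPM and 37.6, 18.02 and 28.02 TPM (adjusted p = 0.035). The 3 wild-type and 3 smd1b values did not overlap for any of these genes, which their choice required. Leaving out 1 library ended the call for PHI-1 without wild-type replicates 1 or 2 or smd1b replicates 2 or 3 (adjusted p 0.055 to 0.0744), for TCH4 without any 1 of the 6 libraries except smd1b replicate 2 (adjusted p 0.0829 to 0.13), for XTH15 without any 1 of the 6 libraries (adjusted p 0.0808 to 0.151) and for AT1G19530 without wild-type replicates 1 or 2 or smd1b replicates 2 or 3 (adjusted p 0.0933 to 0.111).

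The abundant rises were led by PR1, the marker transcript of salicylic acid defence, and the noncoding AT1G67105 and AT4G04223. PR1 had 24.3, 68.9 and 106 TPM in wild type and 258, 912 and 765 TPM in smd1b (log2 fold change 3.31 ± 0.745 SE, limma adjusted p = 0.0342). Every smd1b library was above every wild-type library, which the choice of PR1 required. It was 8.19, 45.97 and 11.3 TPM in prp39a. The call for PR1 was lost without any 1 of the 6 libraries except smd1b replicate 1 (adjusted p 0.0524 to 0.125). AT4G12490, a lipid-transfer-like protein, and AT4G12495, uncharacterised, overlap on opposite strands, so that their reads may not be separable, and both rose from 13.5, 13.7 and 17.5 to 52.7, 67.3 and 53.4 TPM and from 8.92, 17.05 and 12.96 to 67.3, 68.9 and 61.6 TPM (adjusted p = 0.00722 and 0.00385). The small nucleolar RNA gene SNOR108 rose from 17.3, 22.4 and 32.7 to 85.1, 100.1 and 199.7 TPM (adjusted p = 0.00992). Of 41 small nucleolar RNA genes tested, 2 were higher (4.88%) and 2 lower (4.88%), beside 3.57% and 3.06% of all genes. These counts are too small to describe the class, and how well TPM of polyadenylated RNA measure such small RNAs was not tested.

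Some annotated pseudogenes, a class that includes remnants of transposable elements, were among the rises. Of 254 annotated pseudogenes tested, 29 (11.4%) were higher in smd1b and 6 (2.36%) lower, beside 686 of 19699 protein-coding genes higher (3.48%) and 604 lower (3.07%). The median log2 fold change of the pseudogenes was 0.01, near that of all genes. Their median wild-type level was 3.31 TPM, against 16.2 TPM for protein-coding genes. The limit of 1 TPM was set on the mean of all 9 libraries, smd1b included. A pseudogene low in wild type could thus enter the test through its smd1b level, which favours rises in this class. SADHU3-2 (AT3G42658), a pseudogene of the Sadhu family of retroelements, had 3.06, 3.64 and 2.94 TPM in wild type and 42.6, 40.4 and 38.5 TPM in smd1b (log2 fold change 3.47 ± 0.131 SE, limma adjusted p = 1.64e-06). In prp39a it was at 0.574, 0.969 and 0.645 TPM, below every wild-type library, while every smd1b library was above. AT2G13431 had 0.395, 0.282 and 0.128 TPM in wild type and 5.13, 9.01 and 7.32 TPM in smd1b (adjusted p = 6.87e-05). Chosen after their values were seen, the 4 pseudogenes AT5G34790, AT5G34795, AT5G34800 and AT5G34810 lie side by side on chromosome 5 and rose together, with smd1b means 4.09-, 4.43-, 4.08- and 5.08-fold those of wild type (adjusted p = 0.00189, 0.00164, 0.00112 and 0.00183). On the same chromosome the pseudogene AT5G35935 had 1.14, 1.16 and 0.853 TPM in wild type and 4.72, 4.48 and 4.55 TPM in smd1b (adjusted p = 0.000456), next to the lectin gene AT5G35940 that fell. Reads from repeated elements can be divided between near-identical copies, so the values of these pseudogenes are uncertain. Of the 29 rises, 17 were called whichever library was left out, and the number was 18, 19 and 18 without wild-type replicate 1, smd1b replicate 2 and smd1b replicate 3. With no limit on low TPM it was 62, and with a mean of at least 5 TPM it was 9, of numbers tested that are not given here.

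Precursor transcripts of microRNAs had lower calls alone. A microRNA is cut by DCL1 from a folded precursor, and the values are for precursor genes in polyadenylated RNA, not for the small RNA. The annotated precursor genes are short, such as 105 bases for MIR398a and 205 bases for MIR843. How well TPM measure transcripts of such length was not tested. Of 55 precursor genes tested, 6 (10.9%) were lower in smd1b and 0 higher in limma, beside 3.06% lower among all genes. Their median log2 fold change was −0.35, and 41 of 55 lay below 0. The library medians relative to the wild-type mean were −0.49, −0.10 and −0.24 in smd1b, 0.05, 0.03 and −0.06 in wild type, and −0.12, −0.23 and −0.02 in prp39a. The shift was thus largest in smd1b replicate 1, and smd1b replicate 2 lay within the range of prp39a. Outside the 55, too low for the test, the precursor genes MIR843 and MIR405a were listed at 0 in all wild-type libraries and had 1.03, 1.34 and 2.53 TPM and 2.26, 1.32 and 1.53 TPM in smd1b.

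The mature sequences of the 6 precursors that fell are shown to identify the microRNA families and their shared seeds. They were read from the TAIR10.1 genome at the RefSeq annotation, 5′ to 3′, with bases 2 to 8 in capitals. miR156c and miR156d carry the same mature sequence and so the same seed, while the other 4 have a seed each. The arm printed is the one by which the family is usually known.
miR156c-5p: uGACAGAAgagagugagcac
miR156d-5p: uGACAGAAgagagugagcac
miR160c-5p: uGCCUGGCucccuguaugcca
miR162a-3p: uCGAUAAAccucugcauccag
miR167d: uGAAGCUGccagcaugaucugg
miR171b-3p: uUGAGCCGugccaauaucacg

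The miR156 family acts on the SPL transcription factors, which promote the change from juvenile to adult growth. Of its precursors, MIR156d (chromosome 5, 3456632 to 3456749) had 8.7, 6.11 and 9.64 TPM in wild type and 2.51, 4.16 and 2.61 TPM in smd1b (log2 fold change −1.27 ± 0.209 SE, limma adjusted p = 0.0108). MIR156c had 4.53, 5.57 and 5.54 TPM and 2.42, 4.2 and 2.8 TPM (adjusted p = 0.046). MIR160c and MIR167d, whose microRNAs act on auxin response factors, had 7.09, 7.78 and 9.63 TPM and 6.2, 5.68 and 8.09 TPM in wild type. In smd1b they had 4.6, 4.65 and 4.92 TPM and 2.83, 4.9 and 2.17 TPM (adjusted p = 0.0247 and 0.044). MIR162a, whose microRNA acts on DCL1, fell from 15.1, 14.7 and 13.9 TPM to 9.98, 11.96 and 12.1 TPM (adjusted p = 0.0418), and MIR171b, whose microRNA acts on SCARECROW-like factors, from 2.26, 2.11 and 3.01 TPM to 1.1, 1.37 and 1.62 TPM (adjusted p = 0.0417). The groups did not overlap for any of the 6, which their calls favour. Each of the 6 precursors was lower in smd1b than in prp39a by limma's direct test (adjusted p from 0.00507 to 0.0322), where 21.1% of all genes differed. None of the 6 calls held without every library in turn. The call for MIR156d was lost without smd1b replicate 3 (adjusted p 0.0557), for MIR156c without any 1 of the 6 libraries except smd1b replicate 2 (adjusted p 0.0757 to 0.157), for MIR160c without any 1 of the 6 libraries except wild-type replicate 1 (adjusted p 0.0567 to 0.081), for MIR167d without any 1 of the 6 libraries except smd1b replicate 2 (adjusted p 0.0786 to 0.137), for MIR162a without any 1 of the 6 libraries (adjusted p 0.0727 to 0.119) and for MIR171b without any 1 of the 6 libraries (adjusted p 0.0689 to 0.131). Fitted to the 6 libraries alone, 3 were called.

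The number of exons in a gene went with a small graded difference. The median log2 fold change was −0.05 for the 3148 genes of 1 exon, −0.01 for 2758 genes of 2 exons, 0.0048 for 5878 genes of 3 to 5, 0.03 for 5266 genes of 6 to 10, 0.06 for 2832 genes of 11 to 20 and 0.09 for 486 genes of over 20. Genes of 1 exon were called lower in 4.83% of cases and higher in 3.05%, and genes of over 20 exons lower in 0.412% and higher in 2.26%. In each library the median of the over-20-exon genes minus that of the 1-exon genes was 0.14, 0.13 and 0.14 in smd1b and −0.05, 0.04 and 0.0085 in wild type. All 3 smd1b values exceeded the wild-type values, which gave p = 0.1 in a two-sided exact permutation test, the smallest that 3 against 3 allows. In prp39a the values were 0.14, −0.12 and 0.0543, so 1 prp39a library was as high as smd1b and 1 was below wild type. The classes differed in abundance too, with median wild-type levels of 16.98 TPM for over 20 exons and 7.75 TPM for 1 exon, and the part of abundance in the gradient was not tested.

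**Figure D3:**
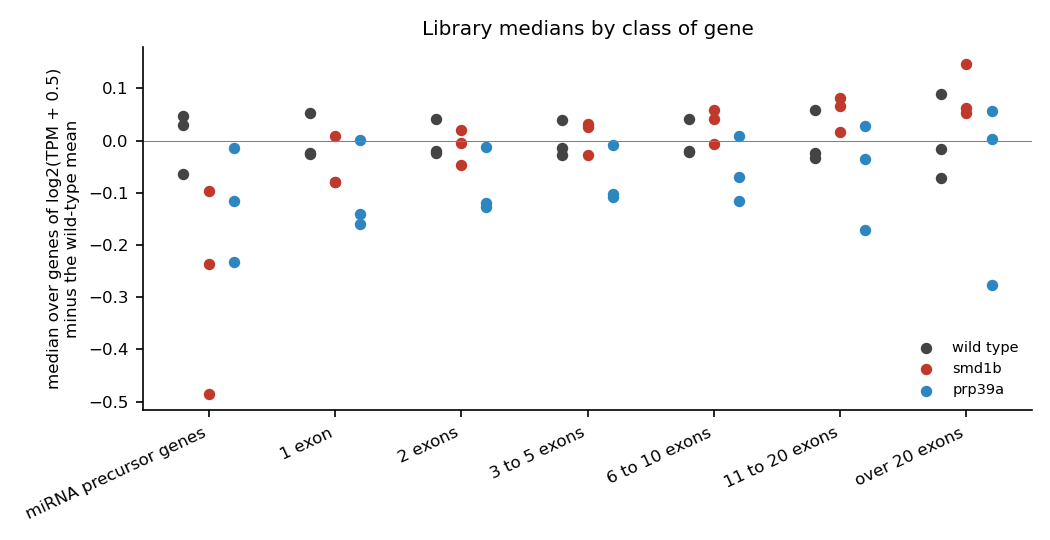
For each library, the median over the genes of a class of log2(TPM + 0.5) minus the gene's wild-type mean, for microRNA precursor genes and for genes grouped by the largest number of exons of an annotated transcript; each point is 1 library of wild type, smd1b or prp39a. The smd1b points of the precursor genes lie below the wild-type points. Each smd1b library lies higher at over 20 exons than at 1 exon, as do, to differing extents, prp39a replicates 1 and 3 and wild-type replicates 2 and 3.

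Flowering genes changed in both directions. Of 19 tested, 3 were higher and 2 lower, beside 3.57% higher and 3.06% lower of all genes, and their median log2 fold change was 0.07. FLC, described above, had the largest change. Its relative MAF5 rose from 1.09, 0.935 and 0.884 to 2.39, 1.94 and 2.84 TPM (adjusted p = 0.0106), so 2 members of the FLC clade moved in opposite directions. AGL24, a promoter of flowering, fell from 10.061, 7.69 and 9.63 to 5.51, 4.05 and 6.48 TPM (adjusted p = 0.031), and FUL, which acts in the floral transition and in fruit, rose from 1.61, 1.64 and 2.1 to 3.09, 5.79 and 4.04 TPM (adjusted p = 0.0348). SVP, a repressor and partner of FLC, was named after its values were seen and rose from 73.6, 74.1 and 80.1 to 87.3, 101 and 101 TPM (adjusted p = 0.037). SOC1, which FLC represses, averaged 52.6 ± 4.61 TPM in the wild-type libraries against 64.8 ± 12.3 TPM in the smd1b libraries and did not pass (adjusted p = 0.226). The groups did not overlap for any of the 5 calls, which a call favours. The call for MAF5 was lost without smd1b replicate 3 (adjusted p 0.0557), for AGL24 without wild-type replicates 1 or 3 or smd1b replicates 1 or 2 (adjusted p 0.0568 to 0.101), for FUL without any 1 of the 6 libraries except smd1b replicate 1 (adjusted p 0.0681 to 0.108) and for SVP without any 1 of the 6 libraries except smd1b replicate 1 (adjusted p 0.0687 to 0.137).

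Among 16 circadian clock genes 2 rose and 1 fell, beside 3.57% and 3.06% of all genes, with a median log2 fold change of 0.04. The morning gene CCA1 fell from 8.69, 7.05 and 7.59 to 3.61, 3.5 and 3.75 TPM (log2 fold change −1.003 ± 0.155 SE, limma adjusted p = 0.00821). The evening gene GI rose from 36.2, 34.5 and 33.1 to 47.5, 49.5 and 49.8 TPM (adjusted p = 0.0164), and PRR3, which stabilises TOC1, rose from 20.6, 23.7 and 22.3 to 29.5, 34.98 and 33.7 TPM (adjusted p = 0.0124). LHY, the partner of CCA1, averaged 1.42 ± 0.248 TPM in the wild-type libraries against 1.1 ± 0.267 TPM in the smd1b libraries (adjusted p = 0.44). Each of the 3 calls had groups without overlap, which a call favours. The labels give an age of 14 days and no hour of harvest. A difference of hour between the groups cannot be told apart from a difference of genotype in these genes. The call for CCA1 held without each library, that for GI was lost without wild-type replicates 2 or 3 or smd1b replicates 2 or 3 (adjusted p 0.051 to 0.0701) and that for PRR3 without smd1b replicate 3 (adjusted p 0.0591).

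Salicylic acid defence genes lay mostly above wild type. Of 18 genes of salicylic acid signalling and systemic resistance, 2 rose, none fell, and 16 of 18 had a log2 fold change above 0 (median 0.25), while 3.57% of all genes rose. The median rested on single libraries: it was 0.05 without wild-type replicate 1, and 0.41, 0.13 and 0.16 without smd1b replicates 1, 2 and 3. The called genes were PR1, described above, and SAG101, a lipase-like partner of EDS1, at 21.8, 26.6 and 28.6 TPM in wild type and 32.8, 39.5 and 36.4 TPM in smd1b (adjusted p = 0.0325). ICS1, which makes the salicylic acid precursor, averaged 16.6 ± 1.38 TPM in the wild-type libraries against 21.01 ± 2.96 TPM in smd1b (adjusted p = 0.135), and the PR2 values were 33.2, 54.4 and 84.6 TPM and 50.97, 133 and 66.6 TPM (adjusted p = 0.529). The call for SAG101 was lost without wild-type replicates 1 or 2 or smd1b replicates 2 or 3 (adjusted p 0.0729 to 0.11).

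Genes known for rapid responses to touch, cold and wounding lay mostly below wild type in smd1b. Of 13 tested, 5 fell and none rose, beside 3.06% lower of all genes, and 11 of 13 lay below wild type, with a median log2 fold change of −0.66. ERF6, an ethylene-responsive transcription factor, fell from 21.7, 32.9 and 30.7 to 16.05, 14.7 and 13.2 TPM (log2 fold change −0.91 ± 0.172 SE, limma adjusted p = 0.0191). WRKY40, a defence transcription factor, fell from 15.5, 26.4 and 26.3 to 11.4, 10.8 and 12.4 TPM (adjusted p = 0.0278), and the zinc finger gene SZF1 from 38.6, 60.7 and 55.8 to 35.1, 33.5 and 32.3 TPM (adjusted p = 0.0447). The fourth was the touch gene TCH4, described above, and the fifth, named after its values were seen, was the calmodulin-like CML38, from 40.9, 54.1 and 38.1 to 31.5, 23.3 and 26.9 TPM (adjusted p = 0.0465). The smd1b and wild-type values did not overlap for any of the 5, which their calls favour. In prp39a ERF6 was at 16.9, 12.04 and 12.4 TPM, WRKY40 at 11.2, 8.9 and 8.46 TPM and SZF1 at 22.7, 21.3 and 21.2 TPM, again below every wild-type library, and the 3 wild-type libraries are shared by both comparisons. TCH3, another touch gene, had 207, 252 and 238 TPM in wild type and 219, 286 and 283 TPM in smd1b (adjusted p = 0.55). No call of this list held without every library: that for ERF6 was lost without wild-type replicates 2 or 3 or smd1b replicates 2 or 3 (adjusted p 0.0572 to 0.0843), for WRKY40 without any 1 of the 6 libraries except wild-type replicate 1 (adjusted p 0.0605 to 0.0887), for SZF1 without any 1 of the 6 libraries except wild-type replicate 1 (adjusted p 0.0757 to 0.15) and for CML38 without any 1 of the 6 libraries except smd1b replicate 1 (adjusted p 0.0689 to 0.141). How the plants were handled at harvest is not given in the sources used here.

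Jasmonate genes were called in both directions. Of 17 tested, 2 rose and 3 fell, beside 3.57% and 3.06% of all genes (median −0.10). The biosynthetic genes AOC2, an allene oxide cyclase, and LOX2, a lipoxygenase, rose from 215, 215 and 175 to 445, 437 and 372 TPM and from 218, 239 and 212 to 405, 526 and 351 TPM (adjusted p = 0.00385 and 0.0176). The 3 falls were all of JAZ repressors, which are themselves jasmonate-induced. JAZ10 went from 5.35, 6.38 and 6.84 to 3.07, 3.09 and 2.52 TPM (log2 fold change −0.98 ± 0.124 SE, limma adjusted p = 0.00372), JAZ7 from 8.49, 10.96 and 7.89 to 4.91, 4.53 and 1.94 TPM (adjusted p = 0.0329), and JAZ5, named after its values were seen, from 2.9, 3.85 and 3.95 to 2.01, 2.48 and 1.73 TPM (adjusted p = 0.0466). AOS, the synthesis enzyme between LOX2 and AOC2, averaged 84.8 ± 0.439 TPM in the wild-type libraries against 93.6 ± 13.4 TPM in smd1b (adjusted p = 0.509). The groups of the 5 called genes did not overlap, which their calls favour. The calls for AOC2 and JAZ10 held without each library, that for LOX2 was lost without wild-type replicates 1 or 3 (adjusted p 0.0605 to 0.0607), for JAZ7 without wild-type replicates 1, 2 or 3 or smd1b replicate 2 (adjusted p 0.0531 to 0.101) and for JAZ5 without any 1 of the 6 libraries (adjusted p 0.056 to 0.163).

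Early auxin-response genes all lay below wild type. All 11 tested had a log2 fold change below 0, with a median of −0.38 (−0.25 without wild-type replicate 3), and 3 passed, beside 3.06% lower of all genes. This list, like the others, was chosen with earlier results of these data known, so the common direction is a description and not a test. All 3 encode Aux/IAA repressors, which auxin induces. IAA3 fell from 79.4, 80.9 and 102 to 45.9, 56.5 and 43.6 TPM (log2 fold change −0.84 ± 0.158 SE, limma adjusted p = 0.0191), IAA14 from 15.1, 17.9 and 14.5 to 11.8, 11.1 and 11.02 TPM (adjusted p = 0.0267) and IAA19 from 8.55, 11.2 and 9.32 to 6.57, 4.55 and 5.27 TPM (adjusted p = 0.0383). All 3 differed from prp39a (adjusted p = 0.00279, 0.027 and 0.0124), and IAA3 stood there at 128, 105 and 87.02 TPM. The call for IAA3 was lost without wild-type replicate 3 or smd1b replicate 3 (adjusted p 0.0617 to 0.0829), for IAA14 without wild-type replicates 1 or 2 or smd1b replicates 2 or 3 (adjusted p 0.0631 to 0.101) and for IAA19 without any 1 of the 6 libraries except smd1b replicate 1 (adjusted p 0.0738 to 0.127). The 4 root markers had log2 fold changes from −0.41 to −0.20 in the same direction and none passed (adjusted p of 0.603 or more). The part of tissue composition in the auxin result was not tested.

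Pigment genes and phosphate genes lay mostly above wild type. Of 10 anthocyanin and flavonoid genes, 3 rose, beside 3.57% of all genes, and all 10 lay above 0 (median 0.38). The MYB regulators PAP1 and PAP2 rose from 2.1, 2.57 and 2.04 to 5.75, 6.97 and 4.1 TPM and from 1.46, 3.23 and 3.1 to 4.85, 5.71 and 6.74 TPM (adjusted p = 0.0285 and 0.031), and chalcone isomerase CHI from 20.3, 15.4 and 14.8 to 34.98, 23.1 and 25.9 TPM (adjusted p = 0.044). The call for PAP1 was lost without any 1 of the 6 libraries except smd1b replicate 3 (adjusted p 0.0615 to 0.0887), for PAP2 without wild-type replicate 3 or smd1b replicates 2 or 3 (adjusted p 0.0501 to 0.12) and for CHI without any 1 of the 6 libraries except wild-type replicate 1 (adjusted p 0.0531 to 0.133). Of 14 phosphate starvation genes, 13 lay above 0 (median 0.34). By limma 0 were called, beside 6.63% of all genes, 5 having an unadjusted p under 0.05. The number called was 2 with size factors, with the 6 libraries alone and with a replicate block, 1 with genes of at least 5 TPM or without smd1b replicate 1, and 3 without prp39a replicate 3. The acid phosphatase PAP17 came nearest, with 79.4, 102 and 84.8 TPM in wild type and 111, 140.2 and 147 TPM in smd1b (adjusted p = 0.0508), followed by SPX3, a phosphate sensor, with 30.6, 41.2 and 36.2 TPM and 48.7, 52.5 and 64.7 TPM (adjusted p = 0.0683). The nitrate reductase NIA1 fell from 70.7, 69.04 and 59.2 to 50.6, 32.8 and 38.3 TPM (adjusted p = 0.0251), the only call of 6 nitrate genes (3.06% of all genes fell), and its level in prp39a was 42.4, 37.3 and 44.1 TPM. The call for NIA1 was lost without wild-type replicates 1 or 2 or smd1b replicates 2 or 3 (adjusted p 0.0655 to 0.098).

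In the indole branch of glucosinolate synthesis 1 gene fell and 1 rose of 7, beside 3.06% and 3.57% of all genes. CYP79B3, which makes indole-3-acetaldoxime, fell from 31.3, 25.6 and 34.03 to 19.1, 16.1 and 13.7 TPM (adjusted p = 0.0142), and CYP83B1, the next enzyme, rose from 143, 168 and 185 to 218, 225 and 218 TPM (adjusted p = 0.0328). The calls were lost without wild-type replicates 1 or 3 or smd1b replicate 3 (adjusted p 0.0526 to 0.0591) and without any 1 of the 6 libraries except wild-type replicate 3 (adjusted p 0.0654 to 0.104). Of 14 aliphatic glucosinolate genes 0 were called, beside 6.63% of all genes, with 1 at an unadjusted p under 0.05. MYB28, their regulator, averaged 25.2 ± 1.73 TPM in the wild-type libraries against 28.3 ± 0.945 TPM in the smd1b libraries (adjusted p = 0.231). BZIP60, the transcription factor of the unfolded protein response whose mRNA is itself spliced outside the nucleus, rose from 44.6, 47.9 and 48.6 to 53.3, 61.1 and 69.1 TPM (adjusted p = 0.0464), the only call of 7 (3.57% of all genes rose), and lost it without any 1 of the 6 libraries except smd1b replicate 1 (adjusted p 0.10 to 0.139). None of 8 iron, 4 sugar starvation and 14 cell cycle genes passed in limma, beside 6.63% of all genes. In these lists 3, 3 and 1 had an unadjusted p under 0.05. The members with the smallest p were NAS4, a nicotianamine synthase, at 3.0 ± 0.381 TPM and 2.04 ± 0.209 TPM, SEN1, a dark-induced gene, at 540.4 ± 79.3 TPM and 371 ± 25.6 TPM, and MCM5, a replication licensing factor, at 10.4 ± 0.653 TPM and 12.2 ± 0.979 TPM (adjusted p = 0.0831, 0.0725 and 0.181).

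**Figure D4:**
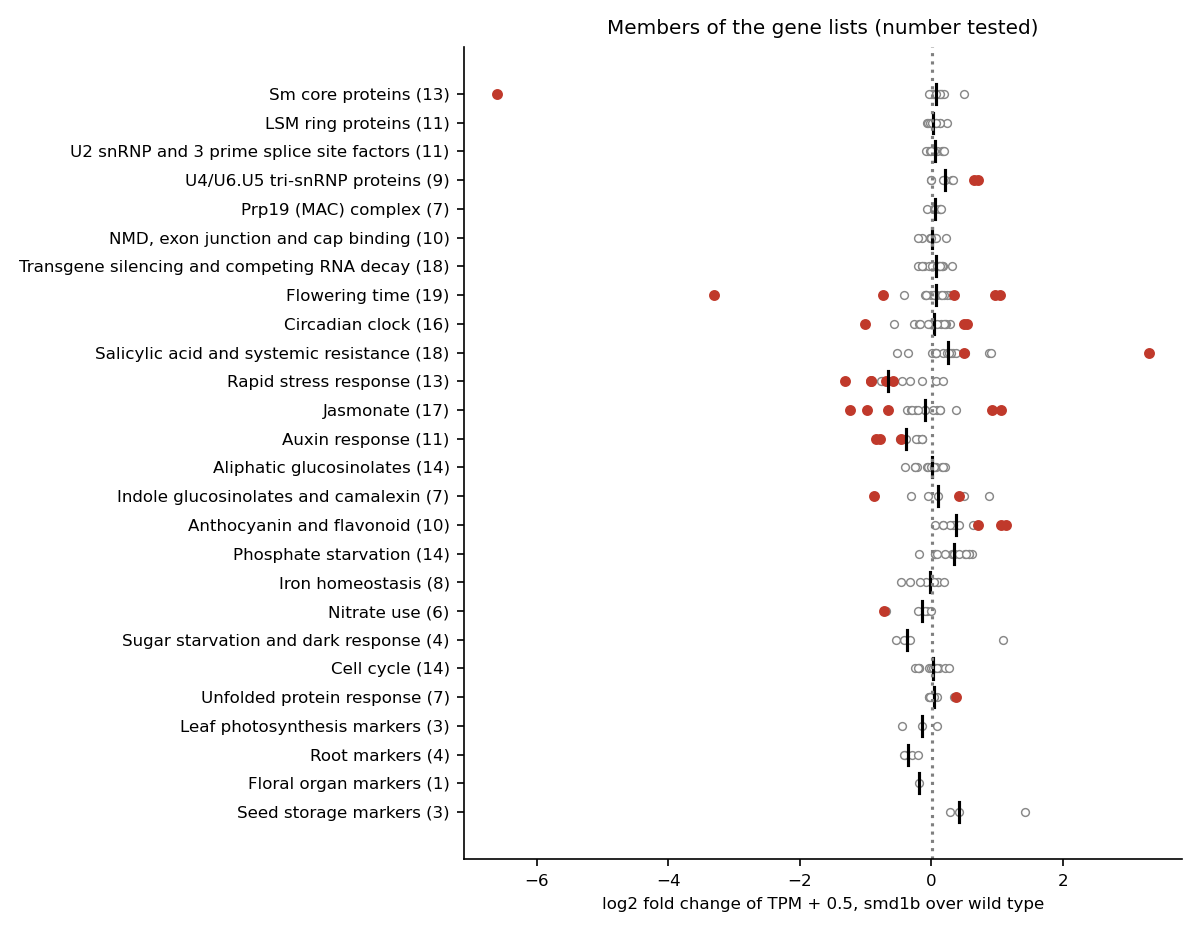
Log2 fold change of TPM + 0.5 in smd1b over wild type for each tested member of the 26 gene lists, the number tested in parentheses; filled red points passed an adjusted p of 0.05 over all genes, open points did not, black ticks are list medians, and the dotted line is the median of all genes tested. The auxin members lie to the left of the line and the anthocyanin members to its right, and the single point near −6.61 is SMD1B. The lists were chosen with earlier results of these data known.

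The isoforms a gene used were tested apart from its total. An isoform was compared with the rest of its gene, as the log2 ratio of their TPM, for 21990 isoforms of 8587 genes. In smd1b 478 (2.17%) changed, 238 higher (1.08%) and 240 lower (1.09%), in 346 genes, of which 49 (14.2%) were called for their total as well, beside 6.59% of all genes with isoforms tested. As the share of 1 isoform falls, that of another rises, so 1 event can be counted more than once. Of 14891 genes of at least 5 TPM in both groups with the same leading isoform in all libraries of each group, 57 (0.383%) had a different leading isoform in smd1b and wild type, and in 35 of the 57 neither isoform was called. Isoforms whose names carry the suffix _ID were called higher in 71 cases (1.71%) and lower in 30 (0.723%) of 4148. The suffixes _s and _JS had more higher calls as well, 20 against 5 of 1279 and 10 against 3 of 1084. Those with _P were called higher in 95 (0.842%) and lower in 154 (1.36%) of 11286, and those with _JC in 2 and 7 of 531. Plain names, with 33 and 35 of 2403, and _c, with 7 and 6 of 1251, were near even. What these suffixes stand for is not given in the sources used here. Of the calls, 70 held whichever of the 6 was left out.

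Among the splicing and silencing lists, isoform calls were few. Of the 5 tri-snRNP genes with isoforms tested 2 had a call, as had 1 of the 12 silencing and decay genes, beside 4.03% of all genes. There was no call in limma's test among 5 Sm core, 4 LSM, 5 U2 and 3′ splice site, 1 Prp19 complex and 5 decay, junction and cap genes. Of PRP3 (AT1G28060), whose total rose, isoform AT1G28060.1 held 62.8, 61.2 and 62.6% in the wild-type libraries and 91.2, 91.01 and 91.1% in the smd1b libraries (log2 fold change 2.51 ± 0.179 SE, limma adjusted p = 0.000767). The second isoform, AT1G28060_JC1, held 36.8, 38.1 and 37.4% and 8.76, 8.74 and 8.88%. In prp39a AT1G28060.1 was at 67.9, 61.1 and 60.5%, near wild type, and it differed from smd1b (adjusted p = 0.00014). The wild-type and smd1b groups lay far apart. U1-70K (AT3G50670), a protein of the U1 snRNP that contacts the 5′ splice site region, was named after its values were seen. Its isoform AT3G50670_P1 held 58.2, 59.01 and 58.4% in the wild-type libraries and 89.4, 83.2 and 86.6% in the smd1b libraries (adjusted p = 0.00403), and AT3G50670_s2 held 25.1, 26.2 and 24.9% and 4.59, 7.95 and 7.53% (adjusted p = 0.0119). In prp39a AT3G50670_s2 was at 4.0, 3.03 and 6.31%, also below wild type. The total of U1-70K fell from 62.02, 63.4 and 63.96 to 51.7, 47.5 and 48.6 TPM (log2 fold change −0.36 ± 0.0619 SE, limma adjusted p = 0.0141), a call that was lost without wild-type replicate 3 or smd1b replicates 2 or 3 (adjusted p 0.0542 to 0.0622). For STA1 the isoform AT4G03430_P2 held 17.4, 18.1 and 25.3% in the wild-type libraries and 3.37, 8.41 and 5.46% in the smd1b libraries (adjusted p = 0.036), and it was 2.76, 7.0 and 3.44% in prp39a. XRN3, a nuclear exoribonuclease whose loss favours transgene silencing, had 98.2% ± 2.51 (SD) of its TPM in isoform AT1G75660_P1 in wild type and 90.95, 89.3 and 84.1% in the smd1b libraries (adjusted p = 0.0433), with prp39a at 87.7, 90.5 and 93.5% and no difference called between the mutants (adjusted p = 0.724). The call for the STA1 isoform was lost without any 1 of the 6 libraries except smd1b replicate 2 (adjusted p 0.0853 to 0.114) and that for the XRN3 isoform without any 1 of the 6 libraries except wild-type replicate 3 (adjusted p 0.0928 to 0.133). Both were also lost when the 6 libraries were fitted without prp39a.

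Apart from AT3G55920, the isoforms with the largest changes of share belonged to genes of varied function. AT2G41640_s1, of a glycosyltransferase family 61 gene, held 52.7, 38.99 and 53.1% in the wild-type libraries and 99.4, 80.9 and 99.5% in the smd1b libraries (adjusted p = 0.0259). AT4G37095.1, of an uncharacterised gene, held 0, 12.4 and 1.13% in the wild-type libraries and 40.5, 45.5 and 54.97% in the smd1b libraries (adjusted p = 0.0221), and prp39a lay between at 13.9, 37.02 and 26.1%. In both genes every smd1b library was above every wild-type library. AT1G17990_JC6 held 43.01, 44.3 and 64.6% in the wild-type libraries and 6.7, 15.2 and 8.66% in the smd1b libraries (adjusted p = 0.00986); its gene, an FMN-linked oxidoreductase, has the near copy AT1G18020 in the table, so reads may be divided between them. AT3G56160_P3, of a bile acid symporter family gene, held 31.2, 37.8 and 36.8% in the wild-type libraries and 5.22, 0.135 and 2.73% in the smd1b libraries (adjusted p = 0.00406). In prp39a it held 13.4, 14.7 and 11.9%, also below every wild-type library. AT1G10910_P1, of the pentatricopeptide repeat gene EMB3103, held 39.1, 43.5 and 45.1% in the wild-type libraries and 72.5, 70.4 and 74.7% in the smd1b libraries (adjusted p = 0.00471), against 38.9, 38.6 and 37.4% in prp39a. For AT1G17990_JC6, AT3G56160_P3 and AT1G10910_P1 the wild-type and smd1b groups stood well apart, and the calls held without each library. APL4, a subunit of the starch synthesis enzyme ADP-glucose pyrophosphorylase, had 14.5, 18.4 and 12.4% of its TPM in isoform AT2G21590_JC9 in wild type and 51.7, 49.96 and 47.9% in smd1b (adjusted p = 0.0228). The aldolase FBA7 had 49.7, 46.1 and 47.7% in AT4G26520.1 in wild type and 8.75, 25.9 and 18.4% in smd1b (adjusted p = 0.0278).

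The remaining 6 of the 14 isoforms named for size were AT5G57565_P6 of a protein kinase gene, 42.2% ± 8.71 (SD, n = 3) in wild type and 8.1% ± 6.76 in smd1b, AT1G15410_P2 of a racemase family gene, 69.6% ± 4.97 and 36.5% ± 14.7, and AT5G61560_P1 of a U-box gene, 51.4% ± 6.85 and 22.2% ± 5.01, all lower. The higher ones were AT5G14850_P1 of a mannosyltransferase gene, 30.1% ± 3.8 and 61.2% ± 8.4, AT1G01260_P1 of a basic helix-loop-helix gene, 40.9% ± 6.67 and 70.96% ± 7.07, and AT5G14650.1 of a pectin lyase-like gene, 47.2% ± 5.93 and 76.8% ± 8.6. Their adjusted p-values ran from 0.016 to 0.044. In limma's direct test 11 of the 14 differed between smd1b and prp39a. The others were AT4G37095.1, AT5G61560_P1 and AT1G01260_P1 (adjusted p = 0.229, 0.403 and 0.29). In prp39a AT5G61560_P1 averaged 27.2% and AT1G01260_P1 60.6%. Of the 14, 4 were called whichever library was left out, AT3G55920_ID17, AT1G17990_JC6, AT3G56160_P3 and AT1G10910_P1. The other calls were lost for AT2G41640_s1 without any 1 of the 6 libraries except smd1b replicate 2 (adjusted p 0.0747 to 0.0922), AT4G37095.1 without any 1 of the 6 libraries except wild-type replicate 2 (adjusted p 0.062 to 0.0755), AT5G14850_P1 without wild-type replicates 1 or 2 or smd1b replicate 1 (adjusted p 0.0572 to 0.0618), AT4G26520.1 without wild-type replicates 1, 2 or 3 or smd1b replicate 3 (adjusted p 0.0672 to 0.0905), AT5G14650.1 without any 1 of the 6 libraries except smd1b replicate 2 (adjusted p 0.064 to 0.0944) and AT5G61560_P1 without wild-type replicates 1 or 3 or smd1b replicates 1 or 3 (adjusted p 0.0672 to 0.0794). For AT2G21590_JC9, AT5G57565_P6, AT1G15410_P2 and AT1G01260_P1 they were lost without any 1 of the 6 libraries, at adjusted p up to 0.136. Fitted to the 6 libraries alone, without prp39a, only the 4 firm calls and that for AT2G21590_JC9 were kept of the 14.

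**Figure D5:**
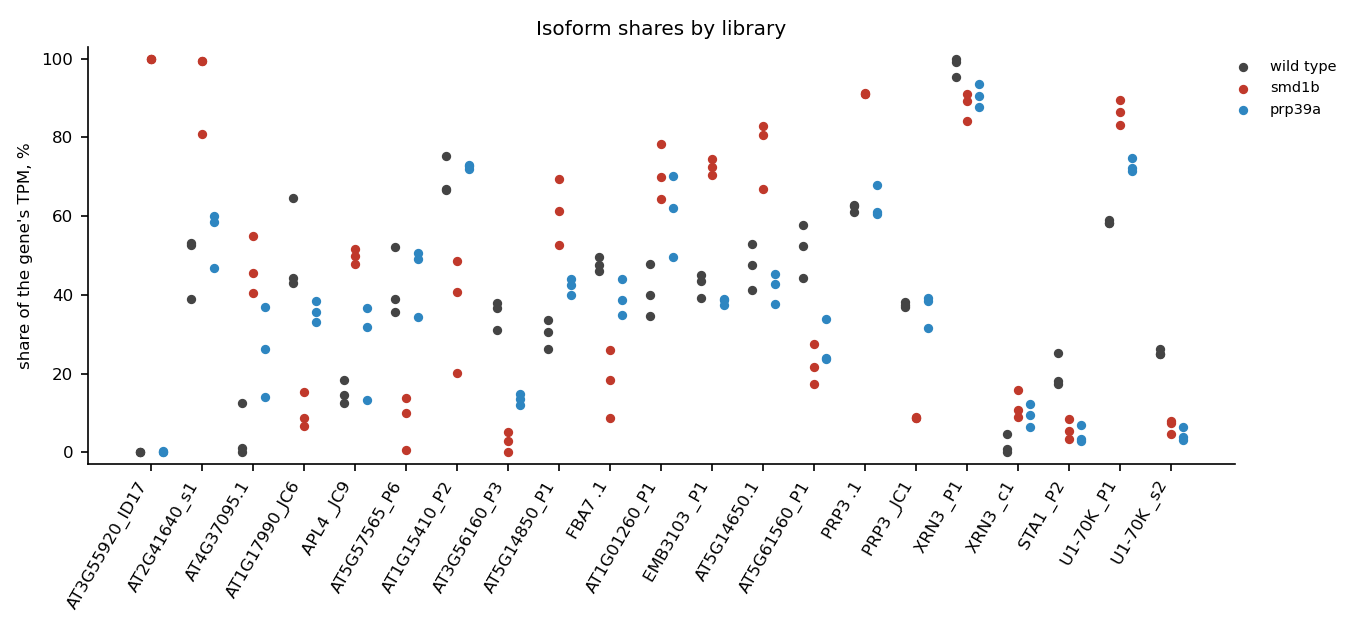
Share of the gene's TPM held by each isoform in every library of wild type, smd1b and prp39a, for the 14 isoforms with the largest change of share, the called isoforms of splicing and silencing genes and a pair from U1-70K; each point is 1 library. AT1G28060.1 of PRP3 and AT3G50670_P1 of U1-70K are higher in smd1b than in wild type in all 3 libraries, and AT3G55920_ID17 is at 100% in smd1b and at or near 0 elsewhere.

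In 3 genes, chosen after their values were seen, a pair of isoforms that carry the plain names of annotated transcripts changed in opposite directions, so that the intron by which the models differ could be read from the annotation. The sequences around its ends show the splice sites concerned. Each was read from TAIR10.1 on the gene's strand, 5′ to 3′, with 8 exon and 20 intron bases and the first or last 2 bases of the intron in capitals.
AT1G64430 5′ site: caaacccgGTtagttaatcattatacat
AT1G64430 3′ site: tcatcttgtatctggtacAGgtcaaaaa
CGL1 5′ site: caaaacatGTacttctccaaccagcatc
CGL1 3′ site: taaccgggtttcacaagcAGatgaaagg
AT3G02065 5′ site: tctattggGTatatatctctccttgatg
AT3G02065 3′ site: agattgatatcttgttgcAGgggaactc

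All 3 introns have GT and AG at their ends. The pentatricopeptide repeat gene AT1G64430 lies on the plus strand, with windows at chr1:23936356-23936383 and chr1:23936675-23936702. An intron of 331 bases is listed in the model AT1G64430.1 and not in AT1G64430.2. AT1G64430.1 held 44.98, 34.1 and 41.6% in the wild-type libraries and 20.7, 18.5 and 19.5% in the smd1b libraries (adjusted p = 0.0159). AT1G64430.2 held 11.3, 11.4 and 11.1% and 22.8, 19.8 and 17.7% (adjusted p = 0.044). In prp39a AT1G64430.1 stood at 62.6, 59.3 and 60.4%, above wild type and smd1b, and it differed from smd1b (adjusted p = 0.000213). CGL1 (AT4G38240), the enzyme that opens the path to complex N-glycans in the Golgi, lies on the minus strand, with windows at chr4:17931976-17932003 and chr4:17931914-17931941. An intron of 74 bases is listed in the model AT4G38240.1 and not in AT4G38240.2. AT4G38240.1 held 49.5, 41.5 and 44.9% in the wild-type libraries and 22.05, 30.1 and 24.7% in the smd1b libraries, and AT4G38240.2 held 22.2, 19.1 and 24.2% and 40.8, 41.2 and 35.4% (adjusted p = 0.0346 and 0.0295). In prp39a AT4G38240.1 held 26.7, 33.9 and 32.5% and AT4G38240.2 held 42.3, 35.4 and 36.2%. Neither differed between the mutants in limma's direct test (adjusted p = 0.324 and 0.895). In both genes the isoform whose model does not list the intron held a larger share in every smd1b library than in any wild-type library. Whether those models retain the intron was not tested. The most abundant isoform of AT1G64430 in the smd1b libraries, AT1G64430_ID4, whose structure is not known here, held 41.6, 51.6 and 44.6% and 53.5, 57.97 and 55.9% and did not pass (adjusted p = 0.194).

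AT3G02065, annotated as a P-loop nucleoside triphosphate hydrolase, on the plus strand with windows at chr3:358989-359016 and chr3:359041-359068, differed in its first intron, 64 bases long in AT3G02065.2. The model AT3G02065.3 starts inside that intron and so lacks the first exon. AT3G02065.2 held 84.5, 76.1 and 90.4% in the wild-type libraries and 51.00, 53.7 and 58.6% in the smd1b libraries, and AT3G02065.3 held 10.3, 22.4 and 7.69% and 46.9, 43.5 and 35.2% (adjusted p = 0.0221 and 0.0277). In prp39a AT3G02065.2 held 68.0, 61.6 and 72.6% and AT3G02065.3 held 26.7, 33.7 and 25.4%, between wild type and smd1b. The mutants did not differ in limma's direct test (adjusted p = 0.172 and 0.20). For the totals of the 3 genes no call was made (adjusted p = 0.726, 0.801 and 0.785). Fitted to the 6 libraries alone, without prp39a, none of these isoform calls of the 3 genes was kept. The isoforms were matched to the models by name alone, and the calls were not firm to the loss of a library: those for AT1G64430.2, AT4G38240.1 and AT4G38240.2 were lost without any 1 of the 6 libraries, at adjusted p up to 0.125. For AT1G64430.1 it was lost without wild-type replicates 1 or 3 or smd1b replicates 1 or 2 (adjusted p 0.0513 to 0.0646), for AT3G02065.2 without any 1 of the 6 libraries except wild-type replicate 2 (adjusted p 0.0536 to 0.0814) and for AT3G02065.3 without any 1 of the 6 libraries except wild-type replicate 2 (adjusted p 0.0555 to 0.0955).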

How the data were processed

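Polyadenylated RNA of whole seedlings was sequenced with a stranded kit, per the labels' protocols. The authors deposited TPM per transcript isoform. The column names point to kallisto, with no version or annotation given in the sources used here. The submitters' processing notes name TAIR10, Trimmomatic, TopHat2, featureCounts and DESeq2, without roles. Of 15 value columns, 9 matched the samples by name (smdb1 was read as smd1b, col as wild type) and 6 went unused. Because each library sums to 1000000, depth is unknown, and neither counting intervals nor count tests were possible. Such estimates divide reads between similar transcripts, so near copies and similar isoforms are uncertain, and a 0 may be a failed estimate. From there, isoform TPM were summed per gene. Genes averaging 1 TPM or more over the 9 libraries were tested on log2(TPM + 0.5), which understates changes of low genes. Isoforms with a mean share of 0.05 to 0.95 were tested as log2 of (isoform + 0.5) over (other isoforms + 0.5). The fit was limma 3.58.1 in R 4.3.3 (lmFit, eBayes with trend) over all 3 groups, two-sided, with Benjamini-Hochberg adjustment over all features at 0.05. It was tried on values simulated with independent normal noise of the fitted spread. Such values cannot check zeros, reads shared between isoforms or a spread that differs between groups. The direct contrast of smd1b with prp39a came from the same fit. The members, the 26 gene lists and the tests were chosen with earlier results of these data known. Genes are named for being silent or next to a silent run, for the 12 largest changes each way with at least 5 TPM and without overlap of groups, for the 6 largest with at least 50 TPM, or for the smallest p in a list (up to 4 called members, otherwise 1 or 2). STA1, PRP8, RDR6, AGO1, SOC1, LHY, ICS1, PR2, AOS, TCH3, TIF3C2, AT3G01345 and AT5G28235 were added after their values were seen. Isoforms are named for the 14 largest changes of share in genes of at least 5 TPM, 1 per gene, or for belonging to splicing and silencing lists. Positions, classes and exon numbers come from the RefSeq annotation of TAIR10.1, whose nuclear chromosomes have the lengths of TAIR10; 775 genes of the table are not in it. Alternatives were other pseudocounts, TPM limits, size factors, an untrended prior, the 6 libraries alone, a replicate block, leaving out each library, a narrower share band and other limits for silent genes.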

Additional observations from a re-analysis of the deposited data

How the results depend on the processing

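The total of 1365 genes stayed within 1.5 times under other pseudocounts, TPM limits, size factors, an untrended prior and the 6 libraries alone, and ran from 377 to 1407 when 1 library was left out. With size factors 750 were higher and 782 lower, so the majority turned. The 478 isoforms fell to 106 with the 6 libraries alone and ran from 104 to 409 when 1 was left out. List members called, 33 with members of several lists counted once, were 19 with no TPM limit and 10 to 35 when 1 library was left out. Lower microRNA precursors, 6 in the fit reported, were 3 with the 6 libraries alone and ran from 1 to 4; higher pseudogenes, 29, were 62 with no TPM limit, 9 at a mean of at least 5 TPM and ran from 18 to 31. The genes that differed between smd1b and prp39a, 4336, ran from 2070 to 4434. The genes in silent runs stayed within 1.5 times of 7 under the other limits. The cause of these shifts was not tested, but fits without a library have fewer samples. The replicate numbers did not pair the samples: the deviations of same-numbered wild-type and smd1b libraries correlated at 0.17, −0.28 and 0.0081. With a replicate block 832 genes and 154 isoforms were called, 27 list members, 4 microRNA precursors and 23 pseudogenes. Over all settings and named genes, direction and side of the threshold stayed in 1842 cases, a call was lost in 262 and gained in 21. For the named isoforms they stayed in 378 cases and a call was lost in 194. No called value reversed in these settings. Unknown depth limits all values under about 1 TPM.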

Other observations

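Genes of the DNA damage response were assembled after some of their values were seen, so no test of the group was made. Of 13 such genes tested, 3 were higher in smd1b at a limma adjusted p under 0.05, none lower, beside 3.57% higher of all genes, and the median log2 fold change was 0.16, beside 0.02 for all genes. NAC044, a transcription factor that acts in the arrest of the cell cycle after DNA damage, had 1.03, 0.82 and 0.486 TPM in wild type and 5.94, 4.87 and 6.11 TPM in smd1b (adjusted p = 0.000322). In prp39a it was at 1.04, 0.893 and 1.15 TPM, so the 3 smd1b libraries stood above all others. GMI1, a protein of recombination repair induced by gamma irradiation, had 1.57, 1.69 and 1.44 TPM and 7.05, 5.27 and 5.88 TPM (adjusted p = 0.000853), and RAD17, a checkpoint protein, had 4.42, 4.75 and 4.96 TPM and 6.21, 6.36 and 6.99 TPM (adjusted p = 0.0259). The calls for NAC044 and GMI1 held without each library, and that for RAD17 was lost without any 1 of the 6 libraries except smd1b replicate 1 (adjusted p 0.0608 to 0.106). Other genes known for strong induction by DNA damage did not pass: BRCA1 averaged 2.07 ± 0.195 TPM in the wild-type libraries against 2.38 ± 0.323 TPM in the smd1b libraries (adjusted p = 0.567), PARP2 3.95 ± 0.406 TPM and 5.78 ± 0.875 TPM (0.184) and SMR7 1.35 ± 0.157 TPM and 1.15 ± 0.447 TPM (0.625). SOG1, the regulator above them, averaged 13.7 ± 0.73 TPM in the wild-type libraries against 13.04 ± 0.73 TPM in smd1b (0.615).

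Some pairs of neighbouring or related genes, also chosen after their values were seen, moved together. The MATE transporter gene AT2G04050 had 4.48, 5.04 and 4.57 TPM in wild type and 34.6, 35.4 and 41.8 TPM in smd1b (limma adjusted p = 0.00018), and its relative AT2G04070 had 0.627, 1.08 and 1.18 TPM and 3.12, 8.02 and 7.32 TPM (adjusted p = 0.00681). The defensin-like genes AT4G22214 and AT4G22217 fell from 6.2, 8.71 and 6.55 to 1.77, 1.15 and 1.49 TPM and from 5.23, 7.08 and 3.05 to 0.801, 0.834 and 1.23 TPM (adjusted p = 0.000335 and 0.0269). Near copies can share reads, so these values are uncertain between the members of a pair.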
